A study of Mus musculus with 2 samples.

Results

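Stellate cells and fibroblasts, the collagen-producing mesenchymal cells of the liver, were described in 2 single-cell libraries of mouse liver. A barcode was taken as one of these cells when it had at least 500 genes, at least 1000 UMIs (unique molecular identifiers, 1 per captured RNA molecule) and at most 30% mitochondrial UMIs, held at least 5 UMIs and at least 10 per 10,000 of Dcn, Col1a1, Col3a1, Col14a1, Reln, Lrat and Colec11 together, and held under 5 per 10,000 of the Kupffer cell genes Clec4f, Cd5l, Vsig4 and Marco. The rule found 195 of 16206 barcodes that passed the depth limits, out of 27010 deposited. Of these members, 156 of 12593 came from the DDC_cMet library (1.24%, exact 95% interval 1.05 to 1.45) and 39 of 3613 from the DDC library (1.08%, 0.769 to 1.47). Intervals cover counting error only, and since members were chosen by the measured values of these 7 genes, those genes are described and not tested.

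Hepatic stellate cells lie between the hepatocytes and the endothelium of the sinusoid, where they store vitamin A as retinyl esters made by Lrat and act as the pericytes of the liver. After injury they can turn into myofibroblasts that lose their retinoid stores and lay down fibrillar collagen, and fibroblasts around the portal tracts are a further source of scar matrix. In the healthy organ the quiescent cells also send signals to their neighbours, among them ligands of the bone morphogenetic protein family that act on the endothelium.

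The DDC_cMet library pooled cells of 2 WT mice at 0 days with cells of 2 Sox9-CreERT2:Rosa26-mTmG mice at 5 months, which had received the DDC diet and cMet by HTVi and bore liver tumours. The DDC library pooled cells of 2 WT mice on normal diet at 0 days with those of 2 mice carrying Sox9-EGFP that had eaten the DDC diet for 2 weeks, an agent that injures bile ducts and hepatocytes. All mice were labelled C57BL/6J;129S6/SvEvTac, and the cells were labelled hepatocytes and had been prepared by liver perfusion, so mesenchymal cells were those carried along and their share is not that of the tissue. Barcodes do not separate the mice within a library: untreated and treated cells are mixed in both, there is 1 library per condition, and the library cannot be told apart from the condition, so no p-value is given for any comparison.

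In all, 186997180 UMIs fell on 18316 barcodes in the DDC_cMet library and 104523363 UMIs on 8694 barcodes in the DDC library. The members had a median of 12424 UMIs in the DDC_cMet library (range 1062 to 180243) and 16622 in the DDC library (1291 to 64684). The libraries shared 50 barcode sequences, of which 8 passed the depth limits in both and 0 were members in both. At the edge of the rule the lowest members held 10.5 per 10,000 of the 7 genes in the DDC_cMet library and 10.4 in the DDC library, and the highest barcodes just outside held 9.02 and 9.33. The Kupffer limit removed a further 200 and 58 barcodes that met the other conditions, whose medians were 27.7 and 72.9 per 10,000 of the 4 Kupffer genes, so that 356 and 97 barcodes met the rule without it. The removed barcodes stay among the other barcodes used below. Summed, they held 89.1 and 74.6 per 10,000 of the 7 genes, against 1.41 and 1.33 over all other barcodes.

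A member barcode was often not the profile of a single cell type. Only 15 of 156 members in the DDC_cMet library and 2 of 39 in the DDC library lacked the markers of every other liver class; 105 and 30 carried markers of immune, endothelial or biliary cells (at least 5 UMIs and at least 10 per 10,000 of a list), and no doublet caller was run. In the DDC_cMet library endothelial markers were met in 76 members, hepatocyte markers (at least 200 per 10,000) in 62, monocyte or dendritic markers in 31, further Kupffer markers in 21 and mesothelial markers in 6. In the DDC library the same counts were 21, 13, 9, 4 and 1 of 39. All 9 endothelial marker genes had UMIs in the members of both libraries, while the neutrophil genes S100a9, Retnlg, Cxcr2 and Ly6g and the glial gene Sox10 were at 0 in both. For that reason the comparisons in the DDC_cMet library and between the libraries are also given without the members that carried endothelial markers, an alternative chosen after seeing the data.

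**Figure D1:**
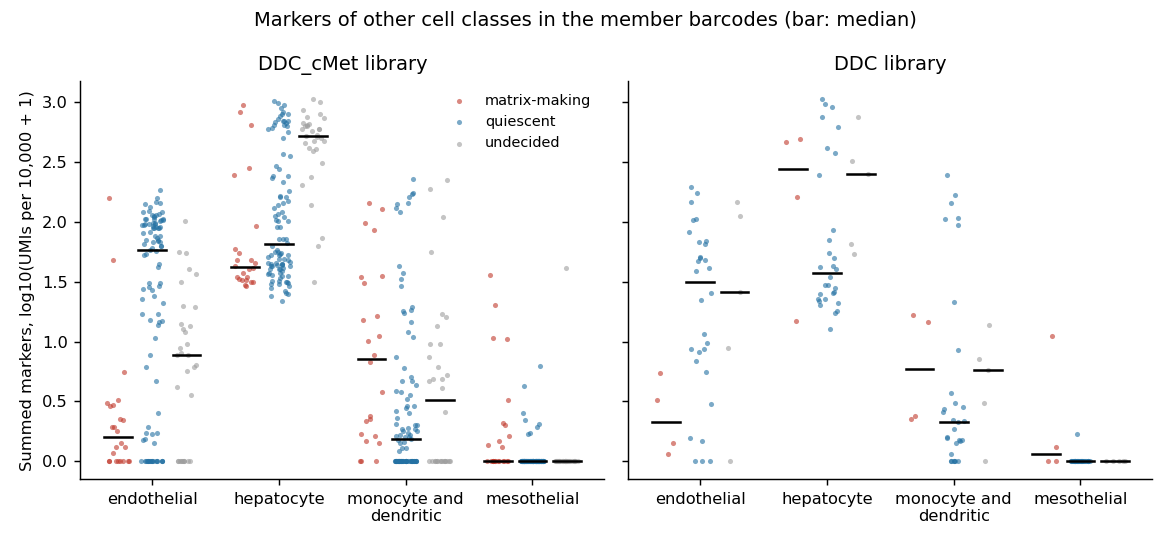
Summed markers of 4 other liver classes on a log10 scale of UMIs per 10,000 plus 1, with 1 point per member, a bar at the median and colours for matrix-making, quiescent and undecided members, by library. Endothelial markers were met in 2 of 24 matrix-making members and 67 of 100 quiescent members of the DDC_cMet library.

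Members were divided by the collagen gene Col1a1 against the quiescence genes Lrat and Reln. Matrix-making members had at least 2 Col1a1 UMIs and more of them than of Lrat and Reln together, quiescent members the opposite, and the rest were undecided. The DDC_cMet library had 24 matrix-making members (15.4%, 10.1 to 22), 100 quiescent and 32 undecided ones, and the DDC library 4 (10.3%, 2.87 to 24.2), 30 and 5. The intervals of the 2 matrix-making shares overlap. Of the members with a decision, 19.4% of 124 and 11.8% of 34 were matrix-making. These classes are ranges on a continuum of few UMIs: 57 and 21 members held both kinds of gene, and 52 and 10 lay within 2 UMIs of the border. Undecided members were shallow, with medians of 2594 and 4158 UMIs, and 28 of the 32 in the DDC_cMet library carried hepatocyte markers.

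**Figure D2:**
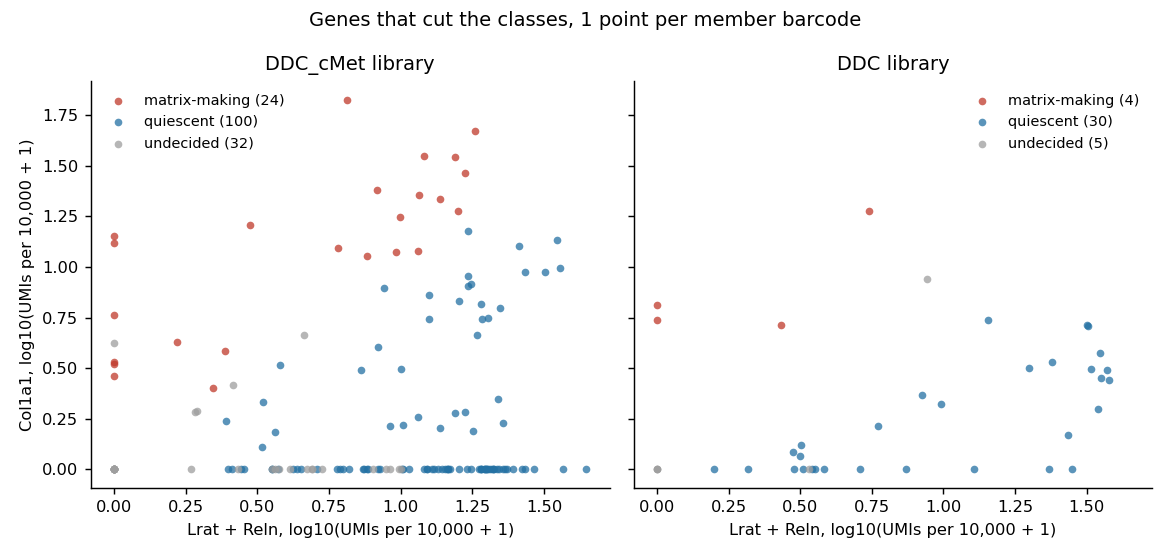
Col1a1 against Lrat plus Reln, both on a log10 scale of UMIs per 10,000 plus 1, with 1 point per member, coloured by class, for each library. The DDC_cMet library holds 24 matrix-making, 100 quiescent and 32 undecided members, and the DDC library 4, 30 and 5.

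The genes of the rule differed in how they followed this division in the DDC_cMet library. Dcn, a small proteoglycan that coats collagen fibrils, lay between 5.23 and 153 per 10,000 in matrix-making members (median 81.6) and between 2.75 and 323 in quiescent members (median 84.4), against 0.818 in the summed other barcodes. The medians of Dcn lay close together in the classes. Col3a1, a fibrillar collagen, had a median of 29.1 per 10,000 in matrix-making members (0.913 to 136) and 2.21 in quiescent members (0 to 36.0). Col14a1, a fibril-associated collagen, had medians of 7.64 in matrix-making and 7.0 in quiescent members. Colec11, a collectin of innate immunity, had medians of 3.0 in matrix-making (0 to 22.1) and 14.6 in quiescent members (0 to 61.6). The genes that made the division had medians of 12.7 (Col1a1), 0.922 (Lrat) and 2.90 (Reln) in matrix-making members and of 0, 4.72 and 8.05 in quiescent members.

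Against all other barcodes of the same library, which is the contrast the rule itself used, members held many genes at other levels. Of 14332 genes with at least 50 UMIs over both sides, 4286 (29.9%) were at least 2-fold higher in the DDC_cMet members and 1453 (10.1%) at least 2-fold lower. In the DDC library 3191 of 13510 genes (23.6%) were higher and 1016 (7.52%) lower. The strongest excess in the DDC_cMet members included the matrix genes Loxl1, Col6a1, Col1a2 and Mgp, with Col1a2 at a log2 ratio of 7.33. In the DDC members it included the stellate transcription factors Lhx2, Tcf21 and Hand2, the nerve growth factor receptor Ngfr, and Sparcl1, a secreted matrix protein, at a log2 ratio of 7.0. These values describe who was chosen.

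Matrix-making and quiescent members of the DDC_cMet library were compared first, on summed UMIs scaled to the class total. Collagens outside the rule were higher in matrix-making members, and genes of retinoid-storing stellate cells and of pericytes were lower. Of 6047 genes with at least 50 UMIs over both classes, 270 (4.47%) were at least 2-fold higher and 788 (13%) at least 2-fold lower, with a median log2 ratio of -0.13 over all of them. The classes also differed in endothelial RNA: the 9 endothelial markers had a median of 0.613 per 10,000 in matrix-making members and 56.6 in quiescent members, and 2 of 24 against 67 of 100 carried them. The part of that RNA in the ratios was not tested as such, but the same ratios were computed from the 22 matrix-making and 33 quiescent members without endothelial markers, where 130 of 2995 genes (4.34%) were higher and 105 (3.51%) lower. Those members differed in hepatocyte markers, with medians of 41.0 and 292 per 10,000. Summed over the class, as in the ratios, these markers stood the other way, at 372 in matrix-making and 319 in quiescent members. One matrix-making barcode held 180243 UMIs, 29.7% of the class total, with 830 per 10,000 hepatocyte markers and 19.1 per 10,000 mesothelial markers, and values that rest on it are named. Without members with endothelial, non-Kupffer immune or biliary markers, 11 matrix-making and 22 quiescent members were left. There 110 of 1726 genes (6.37%) were higher and 108 (6.26%) lower. The barcode with 180243 UMIs stayed among those 11, and its part in their summed values was not tested.

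Of 13 collagen genes in the list, 10 were deep enough, of which 6 were at least 2-fold higher and 0 lower, with a median log2 ratio of 1.73. Without the members with endothelial markers the count was 4 of 10 and the median 0.81. In the 11 against 22 members without endothelial, non-Kupffer immune or biliary markers it was 4 of 9, with a median of 0.56. Col1a2, the second chain of type I collagen, had 0, 20.2 and 81.7 per 10,000 as lowest, median and highest value in the 24 matrix-making members, against 0, 1.79 and 19.6 in the 100 quiescent members. The ranges overlap, but most matrix-making members lay above the quiescent median. The log2 ratio was 2.43 (2.28 to 2.59), on 1114 and 476 UMIs, and 1.80 without endothelial markers. With every barcode thinned to 2000 UMIs, 82.6% of 23 matrix-making and 35.1% of 94 quiescent members had a Col1a2 UMI (91.3% and 72.3% unthinned, medians of 18857 and 14158 UMIs), against 0.601% of 333 barcodes with endothelial markers outside the members (2.10% unthinned, median 8756). Across the members with at least 2000 UMIs, Col1a1 and Col1a2 per 10,000 had a Spearman correlation of 0.73 in the DDC_cMet library (n = 137) and 0.66 in the DDC library (n = 38). This is a description over barcodes that share a library and a depth.

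The bases upstream of Col1a2 are shown because it is the collagen outside the rule with the most UMIs and its chain pairs with that of Col1a1. They cover 250 bases before the gene start at chr6:4505368-4505617 on the + strand of GRCm38.p6, from RefSeq, with the CCAAT box, a common promoter element, in capitals.
Col1a2: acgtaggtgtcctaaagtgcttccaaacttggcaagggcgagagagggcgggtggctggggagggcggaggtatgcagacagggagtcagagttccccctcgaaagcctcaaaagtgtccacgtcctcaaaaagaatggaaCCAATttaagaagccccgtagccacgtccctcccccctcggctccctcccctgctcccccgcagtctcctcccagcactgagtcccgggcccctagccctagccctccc
CCAAT, searched on both strands, had 1 match here, 109 bases before the start. It is held by 33.8% of the 32817 promoters of that table over the same length, and the match is a description of these letters only.

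Type V and VI collagens and a crosslinking enzyme followed the same direction. Col5a2, a chain that sets fibril diameter, had a median of 2.32 per 10,000 in matrix-making members (0 to 10.1) and 0 in quiescent members (0 to 3.97), with a log2 ratio of 2.51 (2.12 to 2.92), and 2.38 without endothelial markers. Col6a1, of the beaded filaments around cells, had medians of 2.77 (0 to 8.38) and 0 (0 to 6.45) and a log2 ratio of 2.70 (2.38 to 3.03), but the largest barcode gave 49.6% of its matrix-making UMIs, and the ratio was 2.20 without the members with mesothelial markers and 1.65 without those with endothelial markers. Col6a2 had 2.36 (1.90 to 2.83) and 1.68. The basement membrane chains Col4a1 and Col4a2, also made by endothelium, stood at 0.41 and 0.10. Loxl1, a lysyl oxidase that crosslinks elastin and collagen, had medians of 1.57 (0 to 3.77) and 0 (0 to 2.82) and a log2 ratio of 3.02 (2.37 to 3.72), with 1.64 without endothelial markers. Of 12 genes for collagen processing deep enough to compare, out of 15, 7 were at least 2-fold higher and 0 lower (median 1.17), among them Plod2, a collagen lysyl hydroxylase, at 1.51. Without endothelial markers 3 of 10 were higher, with a median of 0.48, and without members with endothelial, non-Kupffer immune or biliary markers (11 and 22 left) 1 of 7, with a median of -0.10.

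Other secreted matrix products were less uniform. Of 14 glycoproteins and proteoglycans compared, out of 21, 2 were at least 2-fold higher, Fbln2 at 2.07 and Dpt at 2.12, and 0 lower; the list median of 0.70 was -0.08 without endothelial markers. In the 11 against 22 members without endothelial, non-Kupffer immune or biliary markers, 1 of 11 was higher and 2 lower, with a median of -0.50. Over all members of the classes, fibronectin (Fn1) stood at 0.61 and the proteoglycans Lum and Bgn at 0.79 and 0.02. Among proteases and their inhibitors 8 of 11 compared, out of 14, were at least 2-fold higher and 1 lower, with a median of 1.17, and 3 of 9 were higher without endothelial markers (median 0.63). In the 11 against 22 members 3 of 8 proteases and inhibitors were higher and 0 lower, with a median of 0.09. Over all members of the classes, Mmp2, a gelatinase, had a log2 ratio of 1.44, while Timp3, an inhibitor of metalloproteinases, had -0.69. Timp1, an inhibitor used as a sign of fibrosis, stood at 3.53, but 487 of its 609 matrix-making UMIs were in the barcode with 180243 UMIs; its medians were 0.554 and 0 per 10,000, and its log2 ratio was 1.86 without the members with mesothelial markers.

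Among contractile genes, Acta2 was held mostly by 1 barcode. Acta2, the smooth muscle actin that defines activated stellate cells, had 111 UMIs in matrix-making and 23 in quiescent members, but 89 of the 111 were in 1 barcode. The log2 ratio was 3.48, and 1.22 without that barcode. Tagln, a further smooth muscle gene, had 351 and 362 UMIs and a log2 ratio of 1.16, with -0.12 without endothelial markers. Of 8 contractile genes compared, out of 13, 3 were at least 2-fold higher and 0 lower, with a median of 0.30, and Des stood at -0.05. The barcode with 89 Acta2 UMIs also held the most Col1a1 and Col1a2 UMIs of any matrix-making member, 205 and 253. It was among the members that carried endothelial, non-Kupffer immune or biliary markers. Without those, the 53 members left in the DDC_cMet library held 16 Acta2 UMIs together.

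Some genes among the highest came with another cell type. Igfbp6, Dmkn, Nkain4 and Slpi were high together with mesothelial markers, and Upk3b and Lrrn4, also among the highest, are themselves genes of that marker list. These markers reached 35.2 per 10,000 in matrix-making members and 5.25 in quiescent members, and 4 of 24 and 1 of 100 carried them. Slpi, an antiprotease, had 1658 and 48 UMIs (6.32 on the log2 scale), with 98.5% from 1 barcode. Igfbp5, which binds insulin-like growth factors, had 336 and 42 UMIs (4.21), with 92.9% from 1 barcode. Without the members with mesothelial markers, Slpi stood at -1.69 and Igfbp5 at -2.50. The antibody gene Ighg2c had 605 UMIs in 1 matrix-making barcode and 0 in quiescent members, and that barcode also held 45.2 per 10,000 plasma cell markers. Of 7 portal fibroblast genes compared, out of 15, 5 were at least 2-fold higher and 0 lower (median 1.72), including Igfbp6 and Clec3b; 3 of 7 were higher without endothelial markers (median 0.89), and Pdgfra, a receptor of fibroblasts, stood at 0.44. In the 11 against 22 members without endothelial, non-Kupffer immune or biliary markers, 1 of 5 portal fibroblast genes was higher and 0 lower, with a median of 0.22. Cxcl14, a chemokine, had a median of 1.56 per 10,000 in matrix-making members (0 to 56.2) and 0 in quiescent members (0 to 8.35). Its log2 ratio was 2.46 (2.15 to 2.79), and 1.22 without endothelial markers.

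**Figure D3:**
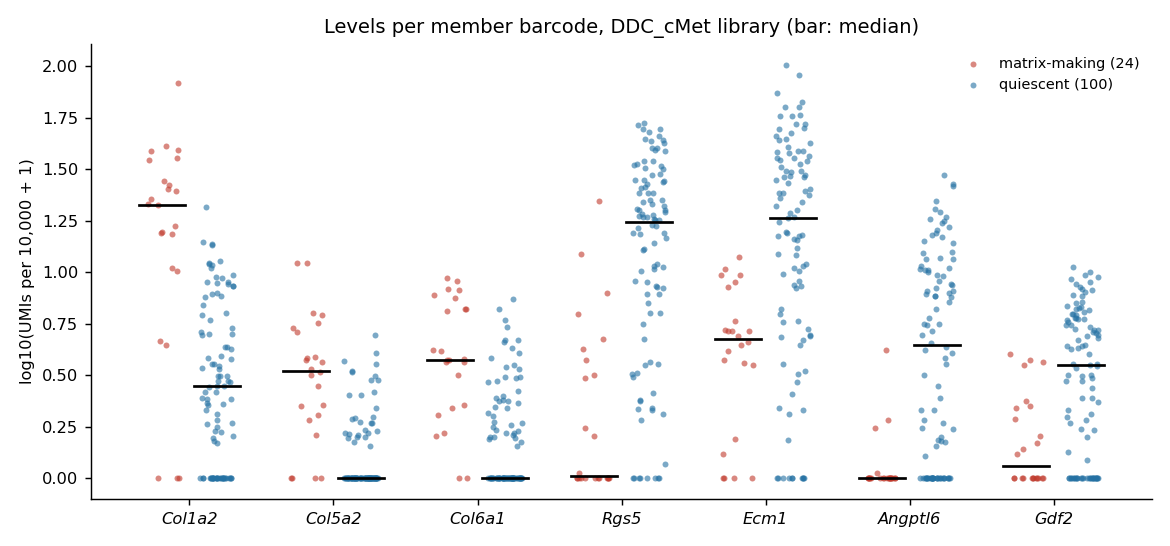
Levels of 7 genes in matrix-making and quiescent members of the DDC_cMet library, on a log10 scale of UMIs per 10,000 plus 1; points are barcodes and bars are medians. In UMIs per 10,000 Col1a2 has medians of 20.2 in matrix-making and 1.79 in quiescent members, and Rgs5 medians of 0.0277 and 16.5.

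Quiescent members stood out by genes of the retinoid-storing stellate cell that the rule did not use. Of 24 such genes 22 could be compared, of which 12 were at least 2-fold lower and 1 higher in matrix-making members, with a median log2 ratio of -1.10; without endothelial markers 5 of 16 were lower and 1 higher, with a median of -0.55. Colec10, a collectin that pairs with Colec11, had 0, 0 and 1.43 per 10,000 in matrix-making members, against 0, 3.02 and 20.6 in quiescent members. It had 3 and 583 UMIs (log2 ratio -6.40, -8.68 to -4.84), and -6.85 on 1 and 75 UMIs without endothelial markers. Angptl6, a secreted angiopoietin-like factor, had 0, 0 and 3.18 against 0, 3.43 and 28.7 per 10,000 and a log2 ratio of -4.90 (-5.96 to -4.01), with -5.35 without endothelial markers. After thinning to 2000 UMIs, 8.70% of matrix-making and 46.8% of quiescent members had an Angptl6 UMI (17.4% and 71.3% unthinned), against 0.901% of the barcodes with endothelial markers (3.60% unthinned), at the depths given for Col1a2. Summed levels of both genes were thus lower in matrix-making members with and without the endothelial barcodes, while the ranges over all barcodes of the classes overlapped.

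Ngfr had 1 UMI in matrix-making and 84 in quiescent members, a log2 ratio of -5.19 (-10.51 to -2.67). Hhip, an antagonist of Hedgehog ligands, had 0 UMIs in matrix-making and 94 in quiescent members; with the 24 matrix-making members together counted as 3 UMIs, it had a bound of -3.76 on the log2 scale. Ecm1, a secreted glycoprotein chosen here after its values were seen, had 0, 3.74 and 10.8 per 10,000 in matrix-making members and 0, 17.3 and 101 in quiescent members, with a log2 ratio of -2.70 (-2.92 to -2.49), and -2.04 without endothelial markers. The list was not uniform: Cygb, a globin of stellate cells, and Tcf21, a mesenchymal transcription factor, were at 0.28 and 0.21, and Rdh10, a retinol dehydrogenase, was higher at 2.07. Cygb and Tcf21 were also chosen after their values were seen. Vipr1, a receptor for vasoactive intestinal peptide, stood at -2.97, Bco1, which cleaves carotene, at -2.42 and Pth1r, a parathyroid hormone receptor, at -2.06, by the same late choice.

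Pericyte genes followed the quiescent class in part. Rgs5, a regulator of G protein signalling and a pericyte marker, had 0, 0.0277 and 21.1 per 10,000 in matrix-making members and 0, 16.5 and 52.2 in quiescent members. Its log2 ratio was -3.13 (-3.41 to -2.86), and -2.48 without endothelial markers. Rgs4 stood at -2.79 and Abcc9, a potassium channel subunit, at -1.28, while Pdgfrb, the receptor of pericytes and stellate cells, stood at -0.20. Of 6 pericyte genes compared, out of 12, 3 were at least 2-fold lower and 0 higher (median -1.13), and 3 of 4 were lower without endothelial markers (median -1.37).

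Some signals to the sinusoid were also higher in quiescent members. Gdf2, which encodes the endothelial ligand BMP9, had 0, 0.152 and 3.02 per 10,000 in matrix-making members and 0, 2.55 and 9.58 in quiescent members, with a log2 ratio of -2.42 (-2.98 to -1.91). Bmp10, its relative with the same endothelial receptor, had 3 and 107 UMIs and a log2 ratio of -3.95 (-6.25 to -2.36). Both kept the direction without endothelial markers, at -2.08 and -3.43. Igfbp3, a carrier of insulin-like growth factors, had medians of 1.21 (0 to 7.26) and 3.80 (0 to 55.4) and a log2 ratio of -2.31 (-2.65 to -1.99), with -1.31 without endothelial markers. Hgf, the ligand of the Met receptor, stood at -1.0, and Rspo3, an enhancer of Wnt signalling, at -0.95. Of 15 signal genes compared, out of 18, 3 were at least 2-fold higher and 3 lower, with a median of -0.68 (2 and 3 of 13 without endothelial markers, median -0.77).

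The remaining lists had fewer genes past 2-fold in 1 direction, except the chemokines. TGF-beta and PDGF signalling had 2 of 14 genes higher and 2 lower (median 0.03); Eng, an endothelial co-receptor of BMP9, was among the lower at -2.06 and stood at -0.63 without endothelial markers. Chemokines, cytokines and complement had 5 of 13 higher and 1 lower (median 0.72), and 2 of 13 higher and 1 lower without endothelial markers (median 0.38). C3 of this list turned to -0.64 without the members with mesothelial markers. Over all members the lower gene was Masp1, a protease of the lectin pathway that works with collectins, at -1.53. Immediate early and stress genes had 0 of 15 higher and 1 lower (median -0.25), but 1 of 14 higher and 8 lower (median -1.04) without members with endothelial, non-Kupffer immune or biliary markers; interferon genes 0 of 11 either way (median 0.21), and 1 cell cycle gene could be compared. Kit, Emcn, Sox18, Icam2 and Nos3, genes of endothelium, were among the lowest in matrix-making members; in the quiescent members without endothelial markers they had 3, 0, 0, 2 and 0 UMIs.

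**Figure D4:**
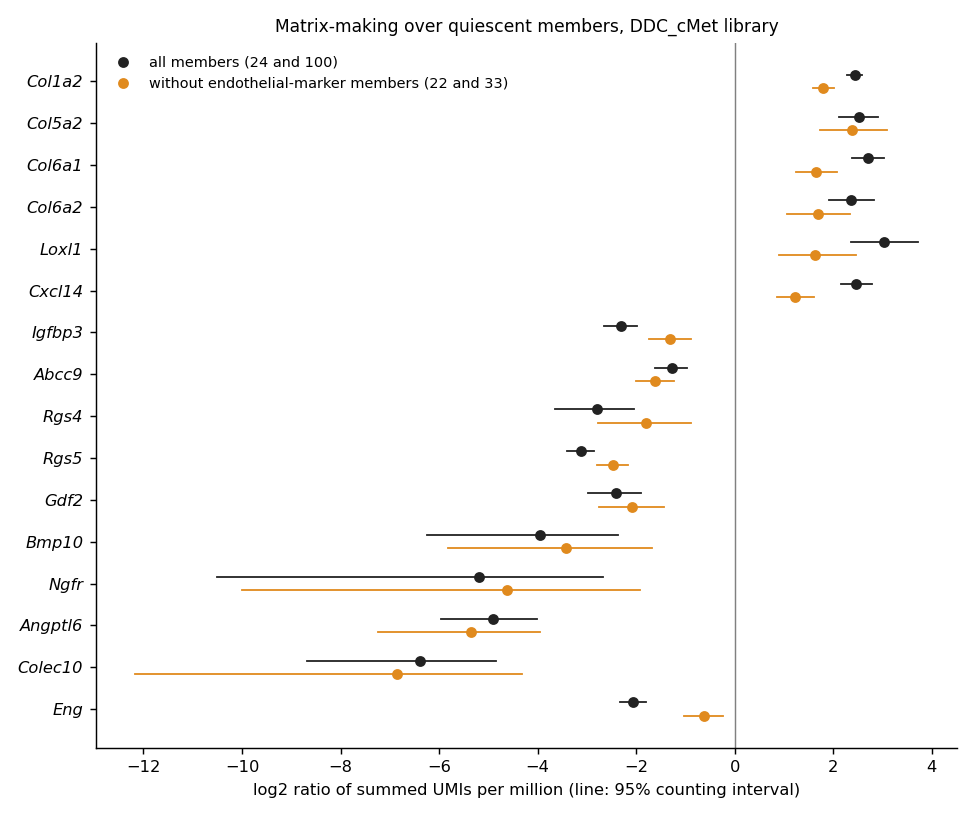
Log2 ratio of matrix-making over quiescent members of the DDC_cMet library with 95% counting intervals, for all members and without those that carried endothelial markers. Col1a2 is at 2.43 and 1.80, Colec10 at -6.40 and -6.85.

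The DDC library offers the same contrast on only 4 matrix-making members, of which 1 holds 68.1% of their UMIs and 2 carry progenitor markers. Of 3001 genes compared, 172 (5.73%) were at least 2-fold higher and 580 (19.3%) lower, with a median of -0.03. The 4 barcodes had 0, 17.9, 18.2 and 4.79 Col1a2 UMIs per 10,000, and the 30 quiescent members 0, 2.46 and 9.68 as lowest, median and highest; the log2 ratio was 1.99 (1.58 to 2.39). Of 6 collagens compared, 3 were higher and 0 lower (median 1.31), and of 15 retinoid and quiescence genes 10 were lower and 0 higher (median -2.18). Colec10 and Gdf2 had 0 UMIs in the 4 members and 241 and 159 in the quiescent ones, giving bounds of -3.34 and -2.74 on the log2 scale with the 4 members together counted as 3 UMIs. Ecm1, chosen after its values were seen, had 13 and 1561 UMIs (-3.92). Rgs5 had 49 and 1323 UMIs (-1.76), all 49 in 1 matrix-making barcode. Here too the endothelial markers differed, in 0 of 4 and 18 of 30 members, with medians of 1.33 and 31.2 per 10,000.

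Quiescent members were the only class large enough in both libraries for a comparison between them. The 100 of the DDC_cMet library, against the 30 of the DDC library, had most retinoid and quiescence genes within 2-fold. They held more Ccn2, Timp3, Tagln and Col15a1 and more of the heat shock pair Hspa1a and Hspa1b. Of 6405 genes compared, 432 (6.74%) were at least 2-fold higher in the DDC_cMet library and 281 (4.39%) lower, with a median of 0.03. The other barcodes of the libraries also differed, in 7.04% of 14977 genes higher and 8.41% lower, and the log2 ratio of the other barcodes is given beside most genes. These other barcodes include the 200 and 58 that only the Kupffer limit kept from being members. For genes of mesenchymal cells their ratio is therefore not free of stellate-like barcodes. The 9 endothelial markers had medians of 56.6 and 31.2 per 10,000 and were met in 67 of 100 and 18 of 30 members, and median depth was 13741 and 17440 UMIs.

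Of 22 retinoid and quiescence genes compared, 2 were at least 2-fold higher in the DDC_cMet library and 0 lower (median 0.24); the 2 were Bco1 at 1.45 and the integrin Itga8 at 1.4. Ecm1 stood at -0.04 and Rgs5 at -0.02, genes given here after their values were seen. Colec10 was at 0.38 and Angptl6 at 0.85. Without endothelial markers 4 of 15 genes of the list were at least 2-fold higher and 0 lower, with a median of 0.26. The 4 were Itga8 at 3.37, Tcf21 at 2.02, Adamtsl2 at 1.60 and Cygb at 1.29, so not every gene of the list stayed at a similar level there.

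Some genes that act on or beside the matrix stood higher in the DDC_cMet library. Ccn2, a matrix protein induced by TGF-beta and YAP, had 0, 3.45 and 17.4 per 10,000 in quiescent members of the DDC_cMet library and 0, 0 and 7.82 in those of the DDC library. Its log2 ratio was 2.81 (2.41 to 3.24) on 703 and 54 UMIs, 3.85 without endothelial markers, and the other barcodes stood the opposite way at -1.98. Timp3 had 0, 11.3 and 78.6 per 10,000 against 0, 3.14 and 12.5, with a log2 ratio of 2.29 (2.09 to 2.49), and 3.81 without endothelial markers; the other barcodes stood at 1.39, and barcodes with endothelial markers held 9.32 and 4.27 per 10,000. Tagln had 362 and 26 UMIs and a log2 ratio of 2.91 (2.33 to 3.54), against 1.55 in the other barcodes; without endothelial markers the DDC library had 1 Tagln UMI left and the ratio was 7.94 (5.45 to 13.2). Mmp2 was at 1.58 (other barcodes 1.72) and at 4.38 without endothelial markers, and Adamts5, a proteoglycan-cleaving protease, at 1.85 (1.05) and 3.52. Of 9 proteases and inhibitors compared, out of 14, 4 were at least 2-fold higher and 0 lower (median 0.99), and 6 of 6 were higher without endothelial markers (median 2.60).

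Collagens differed less. Of 10 compared, 2 were at least 2-fold higher in the DDC_cMet library and 0 lower, with a median of 0.63. These were Col15a1, a basement membrane collagen, with 86 and 3 UMIs (3.95, 2.36 to 6.26; other barcodes -0.48), and Col6a3 at 1.35 (0.49). Col1a2 stood at 0.72 (0.46 to 0.99; other barcodes 0.18). Without endothelial markers, in 33 against 12 members, 6 of 7 collagens were higher, with a median of 1.80, and Col1a2 stood at 2.27, but Dcn of the rule also stood at 1.17 there. Over all genes of that subset 254 of 2397 (10.6%) were higher and 244 (10.2%) lower (median -0.13). Its members also differed in other cell types: biliary and progenitor markers summed to 1.35 and 6.27 per 10,000 (medians 0 and 2.75) and hepatocyte markers to 319 and 505 (medians 292 and 144), with Sox9 at 0 and 37 UMIs, Clu at -2.11 and Spp1 at -1.96; their part in the ratios was not tested. Smoc2, a matricellular protein, had 137 and 8 UMIs, a log2 ratio of 3.21 (2.19 to 4.45; other barcodes 0.22). Cxcl12, a chemokine of stellate cells and pericytes, had 0, 13.9 and 86.2 per 10,000 against 0.648, 8.15 and 24.1, a log2 ratio of 1.03 (0.90 to 1.17; other barcodes 0.82).

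The heat shock pair Hspa1a and Hspa1b had the highest ratios of any list gene over all quiescent members, but not without endothelial markers. Genes above both there included Tagln, Thbs1 (98 and 0 UMIs, a bound of 5.05), Col15a1 (4.88) and Smoc2 (4.45). Hspa1b stood at 3.02 there, on 16 and 2 UMIs, below Ccn2 and Timp3 as well. Hspa1a, an inducible chaperone, had 0, 0.706 and 12.8 per 10,000 in quiescent members of the DDC_cMet library and 0, 0 and 0.605 in those of the DDC library. It had 285 and 3 UMIs, a log2 ratio of 5.68 (4.12 to 7.97), and Hspa1b had 418 and 8 UMIs (4.82). Other heat shock genes differed less: Dnajb1 was at 1.74 and Hsp90aa1 at 0.69, and at 0.52 and 0.04 without endothelial markers. Barcodes with endothelial markers outside the members also differed in Hspa1a, at 1.48 and 0.0770 per 10,000, the other barcodes together stood at 0.90, and without endothelial markers the ratio rested on 17 and 1 UMIs (4.11). These genes are near-identical copies whose reads may be split between them or lost, so the values of either one are uncertain. Their 250 bases before the start are shown because both genes of the pair were higher; they lie at chr17:34972157-34972406 (Hspa1a) and chr17:34959239-34959488 (Hspa1b), both on the - strand of GRCm38.p6 from RefSeq, with the inverted GAANNTTC unit known from heat shock elements in capitals.
Hspa1a: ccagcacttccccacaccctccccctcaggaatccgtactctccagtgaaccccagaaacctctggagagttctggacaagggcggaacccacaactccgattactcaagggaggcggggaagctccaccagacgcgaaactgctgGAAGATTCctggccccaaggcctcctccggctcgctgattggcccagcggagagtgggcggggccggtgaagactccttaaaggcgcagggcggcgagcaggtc
Hspa1b: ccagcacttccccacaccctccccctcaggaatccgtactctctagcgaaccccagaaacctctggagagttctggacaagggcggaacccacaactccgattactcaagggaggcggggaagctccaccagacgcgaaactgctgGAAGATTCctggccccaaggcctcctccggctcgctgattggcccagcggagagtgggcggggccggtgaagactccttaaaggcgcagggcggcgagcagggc
The windows differ at 3 of 250 bases. GAANNTTC, searched on both strands, had 1 match in each, 104 bases before the start, and is held by 6.69% of 32817 promoters. Of 15 immediate early and stress genes compared, 8 were at least 2-fold higher in the DDC_cMet library and 0 lower (median 1.16), among them Fos at 1.57 (other barcodes 0.67) and Atf3 at 2.00 (1.63).

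Fewer list genes were lower in the DDC_cMet library. Clu, a secreted chaperone, stood at -2.85 (other barcodes -2.35), Spp1, which marks bile duct and progenitor cells, at -2.81 (-3.24) with 83.6% of its DDC UMIs in 1 barcode, and Birc5, a mitosis gene, at -3.21 (-0.45) with 70.9% in 1 barcode. Kcnj8, a potassium channel of pericytes, stood at -1.33, and at -0.02 without endothelial markers. Pdgfa, a growth factor, stood at -1.0 (-1.29); 5 of 13 genes of TGF-beta and PDGF signalling were at least 2-fold higher and 1 lower (median 0.81). The clock gene Dbp was also far higher in the DDC_cMet members, at 5.31. It stood at 4.59 in the other barcodes, so a difference of similar size was seen outside the members.

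**Figure D5:**
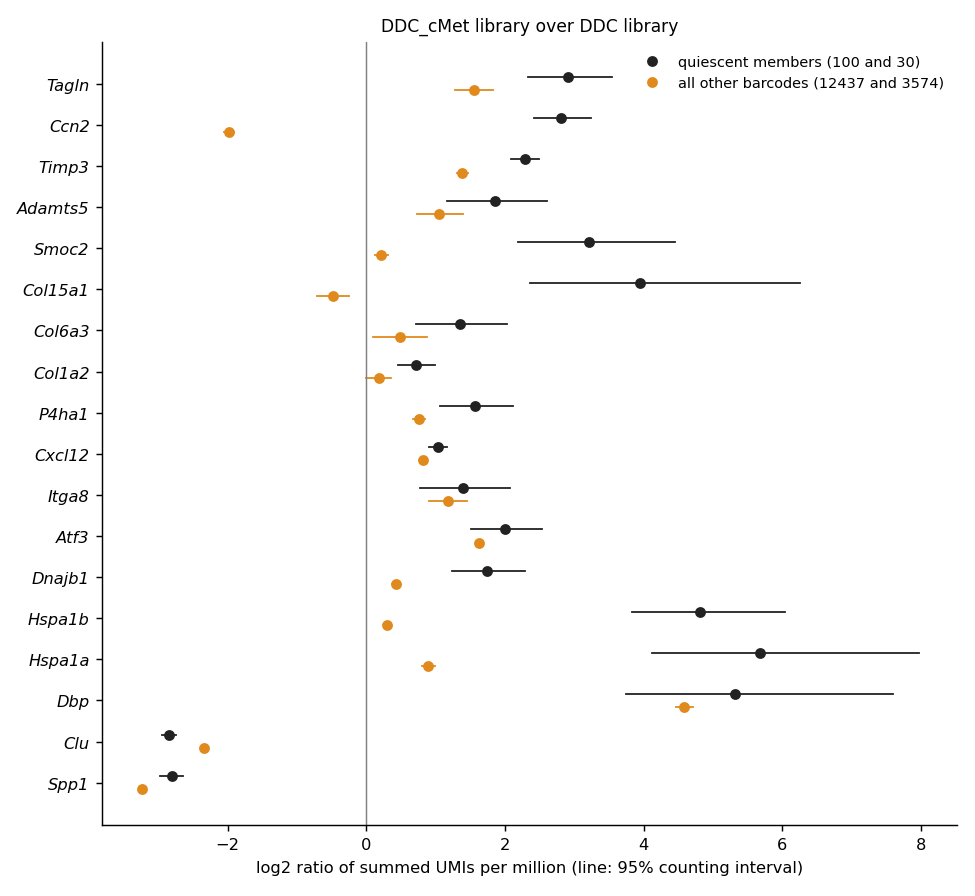
Log2 ratio of the DDC_cMet over the DDC library for quiescent members, with 95% counting intervals, beside the same ratio in all other barcodes. Ccn2 is at 2.81 in quiescent members and -1.98 in other barcodes, Timp3 at 2.29 and 1.39.

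Over all members, 156 against 39, of 7659 genes 484 (6.32%) were at least 2-fold higher in the DDC_cMet library and 277 (3.62%) lower. Here 7 of 10 collagens (median 1.13), 8 of 11 proteases and inhibitors (median 1.96) and 5 of 8 portal fibroblast genes (median 1.60) were higher, with 0 lower in each, beside a median of -0.03 over all genes. With every barcode thinned to 2000 UMIs the collagen median turned to -0.43. The barcode with 180243 UMIs, which carries mesothelial markers, holds 8.45% of the UMIs of the DDC_cMet members. Matrix-making members were 19.4% of the decided members in the DDC_cMet library and 11.8% in the DDC library. The part of that barcode and of these shares in the list counts was not tested. Col1a2 stood at 1.49, against 0.72 in quiescent members alone. Mgp, an inhibitor of calcification, was at 4.10, with the 23 UMIs of the DDC library in 1 barcode, and the neurotrophin Bdnf had 150 and 2 UMIs (4.94). Of 5 cell cycle genes compared, 1 was higher and 3 lower; at least 10 cell cycle UMIs were met in 4 of 156 and 5 of 39 members. Matrix-making members alone, 24 against 4, had 480 of 2286 genes (21%) higher and 212 (9.27%) lower, values that rest on the 4 barcodes described above.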

How the data were processed

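Droplet single-cell RNA libraries (10x Chromium, 3' chemistry, per the labels' protocols) were read from the deposited matrices. The authors deposited raw counts of UMIs for every gene in every barcode, not normalized, with text lists of genes and barcodes (other). Cell Ranger 5.0.1 is named per the file headers and Cell Ranger 6.0.1 with build mm10 per the submitters' processing notes; which of them made the matrices could not be settled. The reporter features tdTomato (DDC_cMet library) and EGFP (DDC library) were left out of totals for ratios.

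Members, classes and gene lists were chosen with earlier results of these data known. UMIs were summed over a class, scaled to its total, and compared as log2 ratios with exact conditional binomial 95% intervals, for genes with at least 50 UMIs over both sides. A side at 0 was set to a floor of 3 UMIs. A gene is called from a 2-fold difference. Shares have Clopper-Pearson intervals. No test over conditions was possible with 1 library per group.

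Genes named in the text are the 10 highest and 10 lowest per comparison that reach 50 CPM in a class, leaving out ribosomal, mitochondrial, unnamed and rule genes and any gene more than 3-fold above the members in the remaining barcodes of a library; up to 4 per list by the size of the ratio; the rule genes; and the reporters. Others, given as contrast within a list or with a list's members, were chosen after their values were seen, and not all genes the rule allows are named; some are not reported here.

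No doublet caller was run; members with markers of another class were counted, and comparisons repeated without those with endothelial, non-Kupffer immune or biliary markers, which keeps members with hepatocyte, mesothelial or Kupffer markers alone, and without those with endothelial, hepatocyte or mesothelial markers in turn. Alternatives were stricter depth limits, a higher rule threshold, other class limits, no Kupffer limit, membership without Col1a1, Lrat and Reln, thinning to 2000 UMIs, median-of-ratios scaling, means over barcodes and a minimum of 20 UMIs.

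Counts were simulated for the comparison of matrix-making with quiescent members of the DDC_cMet library (6047 genes), with 200 genes at known folds. Interval coverage of the truth was 96.1%. All 4-fold and 8-fold genes passed 2-fold, 59.0% of 2-fold genes did, and 0.725% of unchanged genes did. These rates are read for counting error in summed UMIs only. They do not cover differences between barcodes, where a single barcode can hold most UMIs of a gene. They are therefore not error rates for the ratios reported above. Scripts ran in Python 3.11.15 with pandas 2.3.3, scipy 1.17.1, numpy 2.4.6 and matplotlib 3.10.9.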

Additional observations from a re-analysis of the deposited data

Results flagged for a closer look

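In the comparison of matrix-making with quiescent members, 2 lists stood on opposite sides of 0 in the 2 libraries. Matrix glycoproteins and proteoglycans had a median log2 ratio of 0.70 in the DDC_cMet library, on 14 genes, and -0.64 in the DDC library, on 10 genes. Portal fibroblast genes had 1.72 on 7 genes and -1.50 on 2 genes. The difference between the libraries was not tested, and the DDC values rest on 4 matrix-making barcodes, 1 of which holds 68.1% of their UMIs.

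The reporter EGFP, which marks Sox9-expressing cells in the DDC library and was used in no comparison, was found in members: 6 of 39 had a UMI (15.4%, 5.86 to 30.5). They held 84 UMIs, 49 of them in 1 matrix-making barcode, and 3 of the 6 carried progenitor markers. Among the other barcodes 1013 of 3574 had EGFP (28.3%). Thinned to 2000 UMIs, 2 of 38 members (5.26%, 0.644 to 17.7, unthinned median depth 16841 UMIs) and 14 of 509 barcodes with Kupffer markers (2.75%, 1.51 to 4.57, median 19190) had an EGFP UMI, and these intervals overlap. The part of biliary or free RNA in these UMIs was not tested.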

How the results depend on the processing

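The member share was 1.24% in the DDC_cMet library and took values of 1.84% with stricter depth limits, 0.929% with a higher rule threshold, 0.421% without members with endothelial, non-Kupffer immune or biliary markers (53 left, among them members with hepatocyte or mesothelial markers) and 2.83% without the Kupffer limit; in the DDC library (1.08%) the last 3 gave 0.637%, 0.249% and 2.68%. The matrix-making share in the DDC_cMet library was 27.5% without members with endothelial markers, against 15.4%. The count of genes at least 2-fold apart between matrix-making and quiescent members of the DDC_cMet library was 1058, and was 218 without members with endothelial, non-Kupffer immune or biliary markers, 235 without those with endothelial markers, 164 after thinning to 2000 UMIs and 1926 with a minimum of 20 UMIs; fewer genes or members enter most of these. In the DDC library (752) it was 346, 353, 69 and 1756 under the same settings and 1280 with means over barcodes. Between all members of the libraries (761) it was 158 after thinning, 1414 with 20 UMIs and 472 without members with hepatocyte markers. Between quiescent members (713) it was 413 without endothelial, non-Kupffer immune or biliary markers, 373 without hepatocyte markers, 103 after thinning and 1429 with 20 UMIs. A direction was counted as turned only for values at least 1 from 0 on the log2 scale, and few of those turned. Smaller values that crossed 0 were not counted. An example is the glycoprotein median between matrix-making and quiescent members of the DDC_cMet library, at 0.70. It was -0.08 without endothelial markers and -0.50 without endothelial, non-Kupffer immune or biliary markers. Of the counted values, the first are log2 ratios between matrix-making and quiescent members of the DDC_cMet library. Without members with endothelial, non-Kupffer immune or biliary markers (11 and 22 left) Adamts5 was at -0.75, Serpine2 at -0.32 and the collagen processing median at -0.10. After thinning the protease median was at -0.18, Emcn at 0.031 and Hhip and Kit at 0.29. A side at 0 counts as 3 UMIs, so such thinned values can be bounds. Hhip had 0 UMIs in matrix-making members, so its 0.29 is an upper bound and does not show a turned direction. Without endothelial markers Tagln was at -0.12, and without mesothelial markers C3, Igfbp5 and Slpi were at -0.64, -2.50 and -1.69. Between the libraries, the collagen median over all members was -0.43 after thinning; for quiescent members Ccl2 was at 1.49 and Kcnj8 at 1.29 without endothelial, non-Kupffer immune or biliary markers, Ccl2 at 2.06 without endothelial markers, and the portal fibroblast median at -0.38 after thinning. The cause was not tested. Of all settings, 61 of 81 for shares and counts of genes, 594 of 849 for single genes and 682 of 878 for list medians stayed within the limits used. No paired analysis was possible because each group is 1 library. The DDC matrix-making values are limited by their 4 members, by the 1 barcode with 68.1% of their UMIs and by progenitor markers in 2 of them, and genes at 1 to 3 UMIs by counting error.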
